A study of Mus musculus with 4 samples.

Results

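Rab GTPases are the small GTPases that give each intracellular membrane its address, and their mRNA levels were compared between alveolar macrophages of wild-type (WT) and Bach2KO mice. Members were all genes whose current symbol is Rab followed by a number, with or without a letter, so that Rab-like and Rab-interacting genes stayed out. The RefSeq gene table holds 59 such genes. Of these, 57 had a probe on the array, among 19747 genes with one, and Rab36 and Rab44 had no matched probe. A gene counted as measured where, in WT or in Bach2KO or in each, both arrays had its probe well above background, which held for 55 of the 57 Rab genes and 15118 of all genes. Rab30 and Rab39b were not well above background on any array, and 53 Rab genes were above it on all 4.

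The study addressed what the transcription repressor Bach2 does in alveolar macrophages, which live in the airspace, engulf particles and degrade surfactant. WT cells came from 8 pooled mice, and Bach2KO cells, which lack Bach2, came from 4 pooled mice by the treatment protocol or 3 by the series design. Strain, age, sorting gate and the deleted stretch of Bach2 are not given in the sources used here. Each genotype supplied 1 RNA preparation, of which 2 portions were separately amplified, labelled with Cy3 and hybridised, so its 2 arrays repeat the labelling and hybridisation only. They show how precisely an RNA preparation was read and not how mice differ, and no p-value is given for any difference.

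Rab proteins cycle between a GDP-bound form held in the cytosol and a GTP-bound form on a membrane. Guanine nucleotide exchange factors load the GTP, GTPase-activating proteins end the active state, and effectors such as motors and tethers bind the active form. In macrophages a phagosome exchanges early endosome Rabs for late endosome Rabs as it matures towards fusion with lysosomes, and Rabs of lysosome-related organelles and secretion direct specialised granules.

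Values are the log2 processed signal of the brightest probe of a gene minus the log2 of the 75th percentile of its array, so that 0 is the signal at that percentile. Array values are listed throughout in the order WT 1, WT 2, Bach2KO 1, Bach2KO 2. A gene was called higher or lower in Bach2KO where each Bach2KO array was 2-fold or more above, or below, each WT array, over 4 such pairs. The rule looks at size alone and tests nothing. The 75th percentile lay at a signal of 1267 and 1513 in WT and of 1036 and 979 in Bach2KO. Between 27125 and 27918 probes were well above background on an array. The number of arrays and the signal over background limit the precision. The median gap between the 2 arrays of a genotype over the Rab genes was 0.08 log2 in WT and 0.06 in Bach2KO, and the largest gaps were 0.43 and 0.36. The deposited values are those of sorted cells in bulk, in which fewer cells of a type and less RNA per cell cannot be told apart.

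The labels could not be checked on the deleted gene. Bach2 had log2 signals of -6.32, -6.28, -5.16 and -8.13 and was well above background on 2 arrays only, and where its probe lies relative to the deletion was not analysed here. All 12 alveolar macrophage markers were well above background on all 4 arrays, with 1 called higher (Fabp4) and 4 called lower (Siglecf, Marco, Fabp1 and Krt79) in Bach2KO. That is 8.33% and 33.3% of these markers, against 8.37% and 5.9% of all measured genes.

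Of the 55 measured Rab genes, 3 were called higher in Bach2KO (Rab38, Rab15 and Rab34), which is 5.45% against 8.37% of all measured genes. Another 3 were called lower (Rab40b, Rab39 and Rab3c), again 5.45%, against 5.9% of all measured genes. The remaining 49 met neither rule. The 6 called genes made up 10.9% of the family and 14.3% of all measured genes were called, so the family was called about as often as the array as a whole. On the brightest probe of each gene the differences reached 75-fold higher for Rab38, 37.4-fold higher for Rab15 and 12.3-fold higher for Rab34. With scaling to the spike-in controls, which lowers every difference by 0.72 log2, the same 3 genes were called higher and 9 Rab genes were called lower, which is 5.45% and 16.4% against 4.15% and 21.3% of all measured genes. Over all genes that scaling moved the share of calls that were higher from 58.7% to 16.3%.

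The bulk of the family differed little. The median difference, Bach2KO minus WT, was 0.07 log2 over the 55 Rab genes and 0.06 over all measured genes, and for the Rab genes it turned to -0.65 with spike-in scaling and -0.03 with median centring. The median of all genes moved alongside, to -0.66 and -0.04. The middle 50% of Rab genes lay between -0.29 and 0.51, and that of all genes between -0.35 and 0.45. There were 34 Rab genes with a difference under 0.5 log2 in size. Both Bach2KO arrays lay above both WT arrays for 27 Rab genes (49.1%, against 45.6% of all measured genes) and below them for 21 (38.2%, against 39.5%), and the genotypes overlapped for 7. The arrays of the 2 RNA preparations were thus apart for most genes of any kind (85.1%), most often by less than 2-fold.

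**Figure D1:**
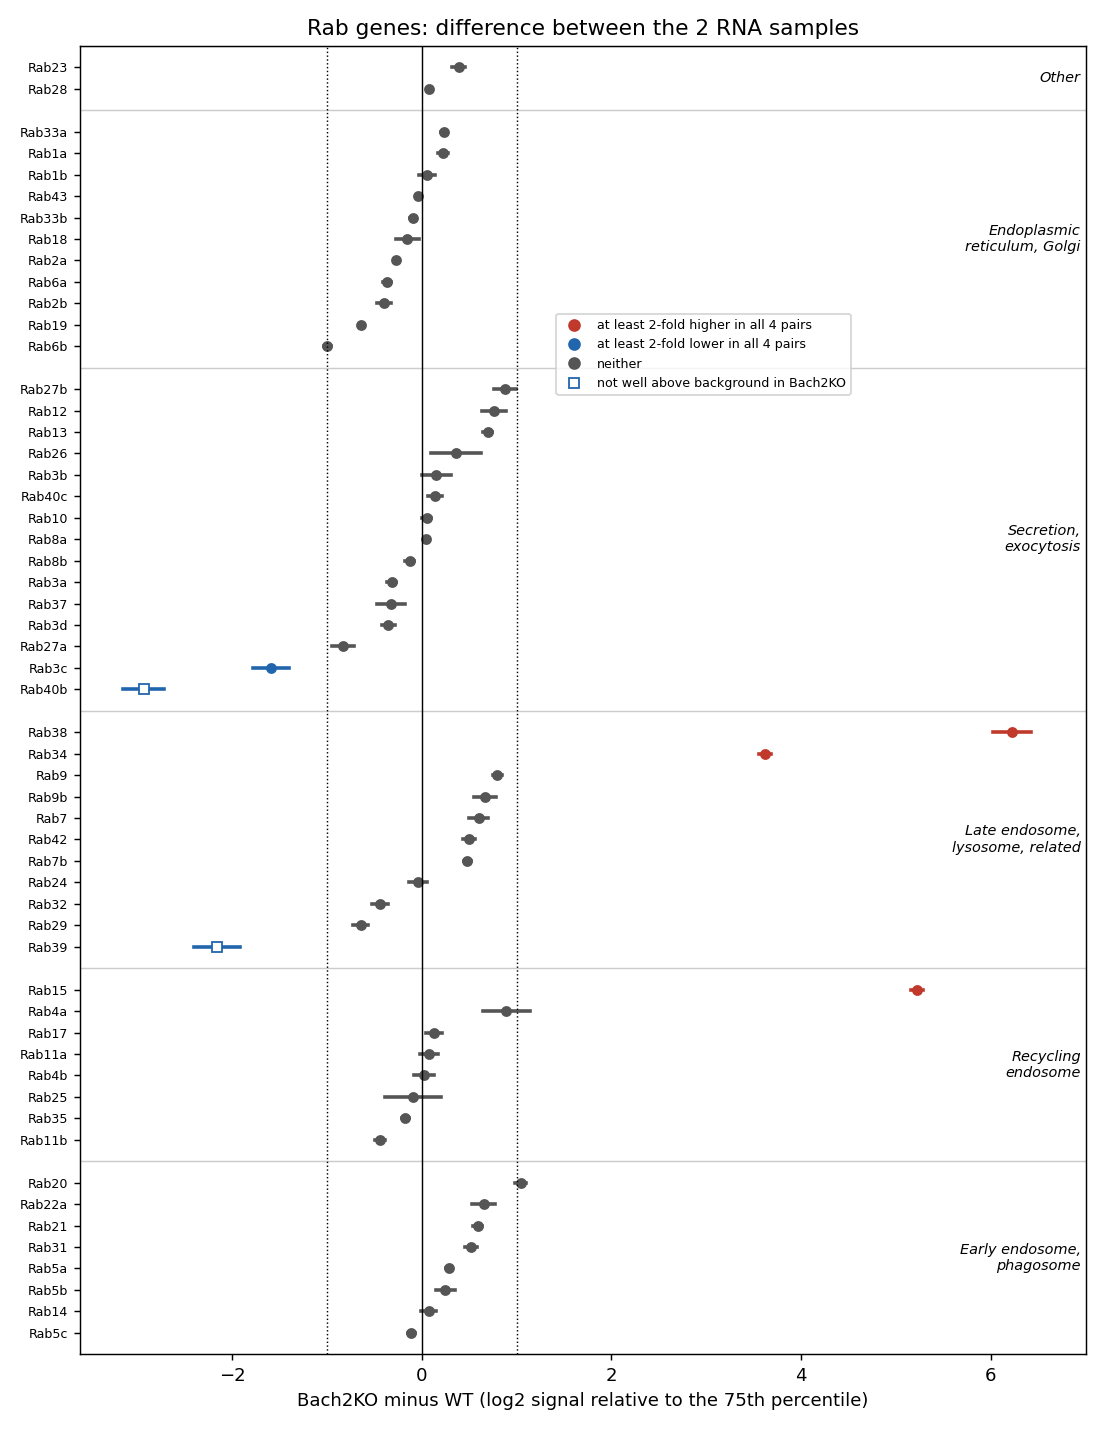
Difference in log2 signal, Bach2KO minus WT, for the 55 measured Rab genes by role. Points are differences of means over 2 arrays per genotype, bars run from the lowest to the highest of the 4 array pairs, dotted lines mark 2-fold and open squares mark probes not well above background in Bach2KO. Rab38, Rab15 and Rab34 stand at 6.23, 5.23 and 3.62, Rab40b, Rab39 and Rab3c at the lower end, and the other 49 genes between -0.997 and 1.04. Scaling to the spike-in controls moves every point 0.72 to the left.

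Late endosome, lysosome and lysosome-related organelle Rabs held 2 of the 3 genes called higher and 1 of the 3 called lower, among 11 measured members. That is 18.2% and 9.09% of this role, against 8.37% and 5.9% of all measured genes. Rab38 takes part in building lysosome-related organelles such as melanosomes and the lamellar bodies of alveolar type II cells. Rab38 (NM_028238) had log2 signals of -4.99, -4.63, 1.40 and 1.44. Both WT arrays were far below both Bach2KO arrays, and all 4 were well above background. The mean rose from -4.81 ± 0.25 to 1.42 ± 0.03 (SD, n = 2 arrays of 1 RNA preparation), a difference of 6.23 with the array pairs between 6.03 and 6.43. A second probe of Rab38, named after the same transcript, was not well above background on any array, and read -8.12 and -8.00 in Bach2KO. The 2 probes thus disagreed on the level in Bach2KO, and the difference rests on 1 probe. Why they disagreed was not tested.

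Rab34 acts in lysosome positioning, macropinosome formation and ciliogenesis. Rab34 (NM_033475) had log2 signals of -1.37, -1.40, 2.28 and 2.19. The WT arrays lay close together and below both Bach2KO arrays, with a difference of 3.62, which is 12.3-fold, and array pairs from 3.55 to 3.68. A single probe represents this gene.

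Rab39, an endosomal Rab with a role in phagosome acidification, was called lower in Bach2KO. Rab39 (NM_175562) had log2 signals of -4.29, -4.17, -6.56 and -6.21. It was well above background on both WT arrays and on neither Bach2KO array, so that Bach2KO has only an upper limit. With that limit set at each array's lowest signal well above background, the gene was at least 3.60-fold lower there. The measured means differed by -2.16. Its call was lost where the background was modelled with normexp in place of the scanner's subtraction. The difference was then as small as -0.52, so the bound holds for the scanner's subtraction only.

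No other late endosome Rab was called. Rab32, the closest relative of Rab38 and its partner in melanosome biogenesis, had log2 signals of 4.49, 4.55, 4.13 and 4.03. Both Bach2KO arrays were below both WT arrays, by -0.44 on average. The pair of relatives thus had unlike differences, 6.23 for Rab38 and -0.44 for Rab32.

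Rab29, which can bring the kinase Lrrk2 to membranes, had log2 signals of 3.86, 3.72, 3.15 and 3.14. The difference was -0.64, and a second probe gave -0.71, below 2-fold in both cases. Rab9, which returns mannose 6-phosphate receptors from late endosomes to the Golgi, had log2 signals of 2.13, 2.07, 2.91 and 2.88. All 3 of its probes had the Bach2KO arrays on the same side, with differences of 0.80, 0.68 and 0.88. Rab7, the central Rab of lysosome fusion, had log2 signals of 1.73, 1.82, 2.43 and 2.32. Its difference of 0.60 was larger than the gap between arrays of a genotype and remained under the 2-fold rule. Of the rest, Rab7b, which acts in transport from late endosomes to the Golgi, differed by 0.48, Rab42 by 0.50, Rab9b by 0.67 and the autophagy-linked Rab24 by -0.04. Both Bach2KO arrays were above both WT arrays for 7 of 11 genes and below for 3, against 45.6% and 39.5% of all measured genes. The median over the 11 genes was 0.50, with 7 above 0 and 4 below. It was 0.18 with normexp and quantile normalization and turned to -0.22 with spike-in scaling.

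Recycling Rabs carry internalised receptors back to the cell surface, and 1 of 8 measured members was called higher and none lower. That is 12.5% higher, against 8.37% of all measured genes, of which 5.9% were called lower. Rab15 governs transport through early and recycling endosomes. Rab15 (NM_134050) had log2 signals of -4.45, -4.55, 0.73 and 0.72. Both WT arrays were low and both Bach2KO arrays high, and the mean moved from -4.50 ± 0.08 to 0.72 ± 0.01 (SD, n = 2 arrays of 1 RNA preparation). The difference was 5.23, or 37.4-fold. A second probe of Rab15 was called higher as well, with a smaller difference of 2.14, or 4.41-fold.

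The other recycling Rabs met neither rule. Rab11b, of the slow recycling route, had log2 signals of 3.53, 3.56, 3.15 and 3.06, both Bach2KO arrays being below both WT arrays, with a difference of -0.44. Rab4a, of the rapid route, had log2 signals of -3.0, -3.38, -2.24 and -2.35. Both Bach2KO arrays were above both WT arrays, with a difference of 0.89 and pairs from 0.65 to 1.14, and a second probe gave 0.55. Without WT 1 its difference was 1.08 and it was called higher. Rab17, best known from epithelial cells, had log2 signals of -2.83, -2.98, -2.78 and -2.76. The genotypes were apart by only 0.13 on that probe, whereas a dimmer probe, not well above background in WT, differed by 2.53, which as a bound is at least 1.33-fold and was not called. With the mean of its probes in place of the brightest, Rab17 was called higher, at 1.33 log2. The dimmer probe entered that mean without its bound. The differences were 0.08 for Rab11a, 0.03 for Rab4b, -0.09 for the epithelial Rab25 and -0.17 for Rab35, which acts in rapid recycling and cytokinesis. The median over the 8 genes was 0.05, and it turned to -0.67 with spike-in scaling, -0.05 with median centring and -0.03 with normexp and quantile normalization.

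Secretory Rabs held the other 2 genes called lower, among 15 measured, and none called higher. That is 13.3% lower, against 5.9% of all measured genes, of which 8.37% were called higher. Rab3c belongs to the Rab3 group, known from regulated exocytosis in neurons and endocrine cells. Rab3c (NM_023852) had log2 signals of 3.42, 3.23, 1.83 and 1.63. The Bach2KO arrays were both below the WT arrays and all 4 were well above background, with a difference of -1.59, which is 3.01-fold. A second probe of Rab3c was also called lower, by -1.56 or 2.94-fold. Its dimmest probe was well above background on 1 array only.

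Rab40b carries a SOCS box, through which it joins a cullin ubiquitin ligase. Rab40b (NM_139147) had log2 signals of -4.84, -4.70, -7.84 and -7.56. Both WT arrays were well above background and neither Bach2KO array was. By a bound set as for Rab39, the gene was at least 2.47-fold lower in Bach2KO, beside measured means that differed by -2.93. As for Rab39, the call was lost with normexp. The difference was then as small as -0.36, inside that bound.

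The Rabs of granule docking were not called. Rab27a, which docks secretory granules and lysosome-related organelles at the plasma membrane, had log2 signals of -1.59, -1.42, -2.37 and -2.30. Both Bach2KO arrays were below both WT arrays, by -0.83 on average. Its relative Rab27b had log2 signals of -5.08, -5.21, -4.32 and -4.22, a difference of 0.87, and a second probe gave -0.09, so the probes of Rab27b disagreed in sign. Rab37, known from mast cell granules, had log2 signals of -1.07, -1.20, -1.53 and -1.38, a difference of -0.32. Its second probe gave -0.59, on the same side.

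Rab8b, of the route from the Golgi to the plasma membrane, had log2 signals of 3.67, 3.71, 3.53 and 3.59. The arrays did not overlap, yet the difference was only -0.13. Rab13, which acts in junction transport in epithelia, had log2 signals of -2.35, -2.26, -1.61 and -1.62, and the Bach2KO arrays were above the WT arrays by 0.69. Rab12, which sends transferrin receptor to lysosomes, had log2 signals of 1.54, 1.36, 2.17 and 2.25, with Bach2KO above by 0.76. The other Rab3 genes differed by -0.35 (Rab3d), -0.32 (Rab3a) and 0.15 (Rab3b). The exocytic Rab8a and Rab10 differed by 0.05 and 0.06, Rab40c by 0.14 and Rab26 by 0.36. The median over the 15 genes was 0.05, with 8 above 0 and 7 below, and it turned to -0.68 with spike-in scaling, -0.06 with median centring, -0.00 with quantile normalization, -0.01 with normexp and quantile normalization and -0.02 with the mean of a gene's probes.

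**Figure D2:**
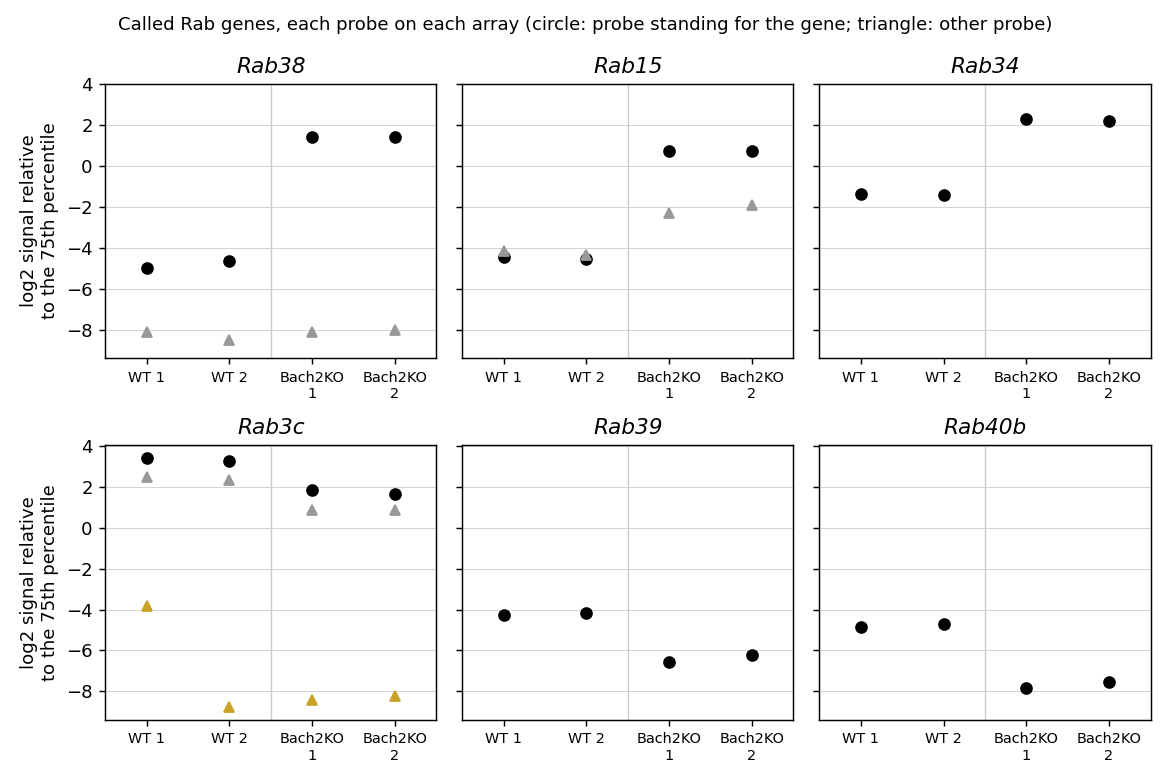
Log2 signal relative to the 75th percentile on each of the 4 arrays for the 6 called Rab genes. Circles are the probe that stands for the gene and triangles its other probes. By the circles, Rab38, Rab15 and Rab34 are lower on both WT arrays than on both Bach2KO arrays. Rab3c, Rab39 and Rab40b are higher on both WT arrays than on both Bach2KO arrays. The second probe of Rab38 lies near the background on all 4 arrays, and the dimmest of Rab3c does on all but WT 1.

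Promoter sequence is shown for 3 called genes because Bach2 is known to bind, with small Maf proteins, elements that resemble AP-1 sites, and these windows hold such letters. Each window runs from 250 bases before to 50 bases after a transcription start in RefSeq GRCm38.p6, is written 5′ to 3′ on the strand of the gene, and has the motif in capitals. Rab15 is chr12:76818325-76818624, minus strand, with TGANTCA 245 bases before the start. Rab34 is chr11:78188177-78188476, plus strand, with TGANTCA 58 bases before the start. Rab3c is chr13:110280157-110280456, minus strand, with TGAC and GCA spaced by 3 bases, read on the opposite strand, 31 bases after the start.
Rab15: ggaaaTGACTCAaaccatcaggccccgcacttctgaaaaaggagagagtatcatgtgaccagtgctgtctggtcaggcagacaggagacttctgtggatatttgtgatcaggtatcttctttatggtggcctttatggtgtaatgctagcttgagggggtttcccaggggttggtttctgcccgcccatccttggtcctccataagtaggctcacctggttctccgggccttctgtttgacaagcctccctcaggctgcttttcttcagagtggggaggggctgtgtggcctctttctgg
Rab34: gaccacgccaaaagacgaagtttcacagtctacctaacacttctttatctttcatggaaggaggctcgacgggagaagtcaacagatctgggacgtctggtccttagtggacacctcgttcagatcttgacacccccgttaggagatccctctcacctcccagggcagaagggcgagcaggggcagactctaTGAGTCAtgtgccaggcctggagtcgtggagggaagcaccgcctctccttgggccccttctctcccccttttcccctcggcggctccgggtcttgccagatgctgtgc
Rab3c: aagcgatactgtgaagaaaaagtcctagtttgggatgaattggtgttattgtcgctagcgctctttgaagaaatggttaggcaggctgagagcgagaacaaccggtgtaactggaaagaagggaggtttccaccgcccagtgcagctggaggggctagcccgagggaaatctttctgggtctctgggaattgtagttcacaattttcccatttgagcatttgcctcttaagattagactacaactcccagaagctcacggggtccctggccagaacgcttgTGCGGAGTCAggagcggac
Rab15 has 4 such windows and Rab34 has 2, and the motif was in 1 window of each.

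The motif TGANTCA, the spaced motif of TGAC, 3 bases and GCA, and the E-box CACGTG were searched on both strands of 60 windows of 48 Rab genes. TGANTCA was in 3 Rab windows (5.0%), those of Rab15, Rab34 and the unmeasured Rab39b, against 7.81% of all 32851 windows. The spaced motif was in 1 Rab window (1.67%), against 3.04% of all. CACGTG, the core letters bound by lysosomal gene regulators of the MiT family, was in 6 (10%), against 7.15% of all, and those belonged to Rab20, Rab21, Rab23, Rab24, Rab27a and Rab5a. Rab38 had no matched window. A match describes these letters in this window and is neither a binding site nor a cause, and no binding was measured in this study.

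Early endosome and phagosome Rabs had no called gene among 8 measured, beside 14.3% called of all measured genes. Rab20, which acts in phagosome maturation in macrophages, came nearest to the rule. Rab20 had log2 signals of -0.45, -0.38, 0.65 and 0.60. Both Bach2KO arrays were above both WT arrays, with a mean difference of 1.04, or 2.06-fold, and its smallest pair at 0.98. It was called higher with quantile normalization and with the deposited values, and also without WT 2, at 1.08, or without Bach2KO 2, at 1.07. The same held for a 1.5-fold threshold, 2-fold in array means, the percentile taken over probes and pairs of crossed array numbers. Under the other 12 of 20 alternatives it was not called, and with spike-in scaling its difference was 0.32.

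Rab14, of early endosomes, the Golgi and phagosomes, had log2 signals of 4.72, 4.66, 4.71 and 4.81, and its genotypes overlapped. The Rab5 genes, which drive early endosome fusion, differed by 0.29 (Rab5a), 0.25 (Rab5b) and -0.11 (Rab5c). The other 3 probes of Rab5b gave -0.13, 0.03 and 0.10, so its sign depended on the probe. Rab22a, of early endosome sorting, had log2 signals of 0.34, 0.24, 0.87 and 1.01, a difference of 0.65. Rab21, which acts in integrin uptake, differed by 0.59, and Rab31, of traffic from the Golgi to endosomes, by 0.52. The differences of 7 of the 8 genes were above 0, with a median of 0.40 that turned to -0.32 with spike-in scaling. Both Bach2KO arrays were above both WT arrays for 6 genes and below for 1, against 45.6% and 39.5% of all measured genes.

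Endoplasmic reticulum and Golgi Rabs likewise had no called gene among 11 measured, beside 14.3% called of all measured genes. With spike-in scaling Rab6b, Rab19 and Rab2b were called lower, as were 21.3% of all measured genes. Of the 11 genes, 8 had both Bach2KO arrays below both WT arrays, an arrangement found in 39.5% of all measured genes. Rab6b, of retrograde Golgi transport, had log2 signals of 0.48, 0.54, -0.50 and -0.48. The difference was -0.997, with the smallest pair at -0.96, and without WT 1 it was -1.03 and called lower. Its close relative Rab6a had log2 signals of 3.07, 3.11, 2.75 and 2.70, a difference of -0.36 in the same direction. Rab19 had log2 signals of 2.80, 2.80, 2.16 and 2.15, the arrays of a genotype nearly coinciding, with a difference of -0.64. Rab2b, of transport between the endoplasmic reticulum and Golgi, had log2 signals of 0.47, 0.40, 0.00 and 0.07, a difference of -0.40, and its relative Rab2a differed by -0.27. Rab1a, needed for transport from the endoplasmic reticulum to the Golgi, had log2 signals of 4.08, 4.14, 4.36 and 4.32. Bach2KO was above WT by 0.22 there, and its relative Rab1b differed by 0.05 with overlapping arrays. Rab18, of lipid droplets and the endoplasmic reticulum, differed by -0.15, Rab33a by 0.23, Rab33b by -0.10 and Rab43 by -0.04. The median over the 11 genes was -0.15, beside -0.87 with spike-in scaling, -0.25 with median centring and -0.31 with the mean of a gene's probes.

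Outside these roles, Rab28, of the photoreceptor cilium, had log2 signals of -0.89, -0.92, -0.83 and -0.84, and Rab23, a negative regulator of hedgehog signalling, differed by 0.39. Neither was called.

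Several probes were measured for 16 Rab genes, and in 13 of them all measured probes shared a sign. The exceptions were Rab27b, Rab5b and Rab8a, none of them called. Rab33b and Rab43 had differences near 0 on the brightest probe and -0.52 and -0.60 on another, and Rab10 had 0.06 and 0.43.

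**Figure D3:**
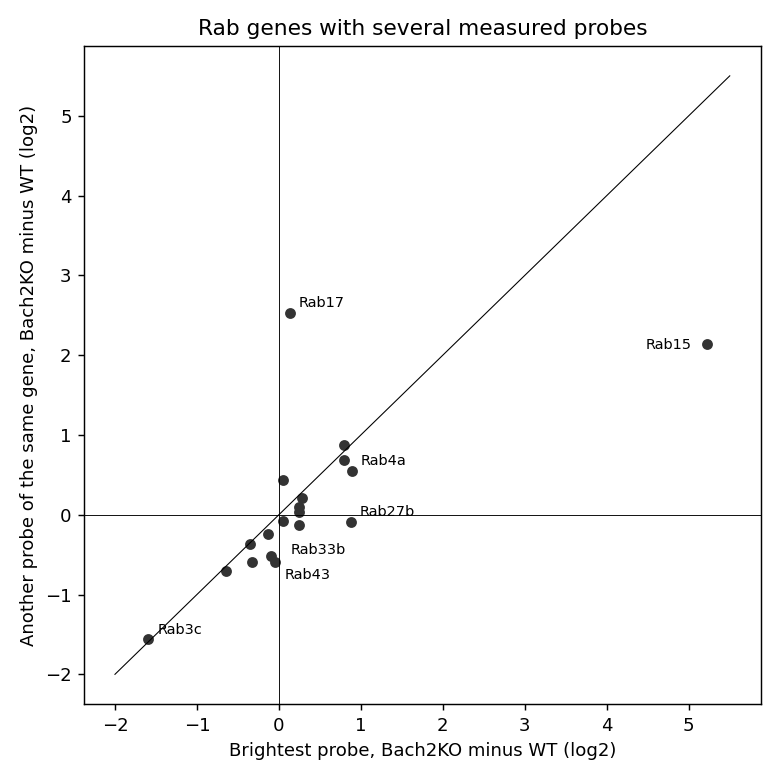
Difference in log2 signal, Bach2KO minus WT, of the brightest probe (horizontal axis) and of another measured probe of the same gene (vertical axis), for the 16 Rab genes with several. The diagonal marks equal differences. Rab3c lies on it at -1.59 and -1.56, Rab15 lies below it at 5.23 and 2.14, and Rab17 far above it at 0.13 and 2.53.

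The genes that switch Rabs on and off and that bind their active form were taken as a list of 160 with a probe, of which 152 were measured. There were 14 called higher (9.21%, against 8.37% of all genes) and 5 called lower (3.29%, against 5.9%), and 133 were neither. Their median difference was -0.00. Genes that met the rule when 1 array was left out, and not with all 4, were Usp6nl (-1.09 without WT 1, -1.10 without Bach2KO 2), Myrip (-1.18 without Bach2KO 2), Wdr91 (1.04 without WT 2), Rab3gap2 (1.06 without Bach2KO 1) and Hps4. With spike-in scaling 8 were called higher and 34 lower (22.4%, against 21.3% of all measured genes).

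Exchange factors had 2 members called higher (5.88%) and 3 lower (8.82%) among 34, against 8.37% and 5.9% of all measured genes. Dennd3, which activates Rab12, had log2 signals of -3.98, -3.90, -1.64 and -1.73, and was 4.79-fold higher. Dennd2c, which acts on Rab9, was not well above background in WT and was at least 2.10-fold higher, a call lost with each other scaling tried apart from those by the deposited values and by the percentile over probes. Without WT 2 or without Bach2KO 2 the measured differences of Dennd2c were 2.15 and 1.56, and it was no longer called. Rin3, which acts on Rab5 proteins and Rab31, had log2 signals of -2.09, -2.06, -3.77 and -3.65, and was 3.1-fold lower. Dennd4a, which activates Rab10, was 2.89-fold lower, and Dennd1c, of the group that activates Rab35, was 2.46-fold lower. Rab12, Rab9, Rab31, Rab10 and Rab35 themselves were not called.

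The exchange factor of Rab38 and Rab32 is the complex of Hps1 and Hps4. Hps1 had log2 signals of -1.07, -1.09, -1.66 and -1.63, a difference of -0.57. Hps4 had log2 signals of 3.89, 3.88, 2.95 and 2.86, a difference of -0.98, or 1.97-fold. Both Bach2KO arrays were below both WT arrays for each, and neither was called, although without Bach2KO 1 Hps4 was, at -1.03. Ankrd27, a binding partner of Rab38 and Rab32, had log2 signals of 1.52, 1.61, 1.01 and 0.90, a difference of -0.61, and was not called either. With spike-in scaling Hps1, Hps4 and Ankrd27 were called lower, at -1.29, -1.70 and -1.33, as were 21.3% of all measured genes.

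GTPase-activating proteins had 3 members called higher (8.82%) and 1 lower (2.94%) among 34, against the same 8.37% and 5.9%. Grtp1, which carries the TBC domain of this class, had log2 signals of -6.31, -6.13, -2.50 and -2.47, a difference of 3.73. It was called higher, but WT 1 was not well above background, so the size of that difference is uncertain, and Grtp1 was not measured under the filter on all 4 arrays. Sgsm2, which acts on Rab32 and Rab38, had log2 signals of -0.07, -0.12, 1.48 and 1.49, and was 2.99-fold higher. Tbc1d16, which acts on Rab4, was 3.06-fold higher, and the calls of Sgsm2 and Tbc1d16 were lost with spike-in scaling. Tbc1d4, which acts on Rab10 in glucose transporter traffic, was 2.48-fold lower. None of the 7 prenylation and membrane extraction genes was called, and their median difference was -0.26.

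Lrrk2, the kinase that phosphorylates Rab8a, Rab10, Rab12 and Rab29, had log2 signals of 0.15, 0.29, 1.90 and 1.91. Both Bach2KO arrays were above both WT arrays, 3.21-fold on average, with a second probe at 1.52 log2. Ppm1h, a phosphatase that removes these phosphates, was 2.16-fold higher on its brightest probe, a call lost with median centring, normexp or the mean of its probes. Its other probes gave 0.66 and, well above background on 1 array only, -1.05. Rilpl1 and Rilpl2 bind the phosphorylated Rabs. Rilpl2 had log2 signals of 1.79, 1.85, 4.43 and 4.41, and was 6.04-fold higher. Rilpl1 was not well above background in WT on its brightest probe, by which it was at least 8.85-fold higher, and a second probe, well above background on 1 WT array, gave a smaller difference of 1.74. These 4 Rabs, named here after their values were seen and not all known substrates of Lrrk2, were not called, with differences of 0.05 for Rab8a, 0.06 for Rab10, 0.76 for Rab12 and -0.64 for Rab29. The calls of Lrrk2 and Ppm1h were lost with spike-in scaling, where their differences were 0.96 and 0.39, while those of Rilpl1 and Rilpl2 were kept. With that scaling Rab29 was called lower, at -1.37, as were 21.3% of all measured genes. At a 1.5-fold threshold with the 75th percentile scaling Rab12 was called higher. Lrrk1, the related kinase of Rab7, had log2 signals of 2.18, 2.13, 1.24 and 1.33, both Bach2KO arrays being below both WT arrays. Its difference of -0.87 was not called, but the mean of its probes, -1.10, and spike-in scaling, -1.59, made it lower.

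Effectors of secretory Rabs had 5 members called higher and 1 lower among 20 measured of 26, which is 25% and 5.0% against 8.37% and 5.9% of all measured genes. Mlph joins Rab27a on an organelle to the motor Myo5a. Myo5a had log2 signals of -0.09, -0.10, 3.24 and 3.26, a difference of 3.34. Mlph had log2 signals of -1.92, -1.84, 0.24 and 0.27, and was 4.40-fold higher. Rab27a, the Rab of this complex, was not called, with its Bach2KO arrays below WT by -0.83. Unc13d, a Rab27a effector in granule release, was 2.98-fold higher, a call lost with spike-in scaling. Micall2, an effector of Rab13, was 5.42-fold higher, and Optn, an effector of Rab8 and an autophagy receptor, was 4.56-fold higher. Unc13b, a vesicle priming factor, was 5.45-fold lower. With spike-in scaling Exoc3, Exoc6, Exoc8 and Myrip of this list were called lower as well, as were 21.3% of all measured genes.

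No effector of early endosome Rabs (11 measured), recycling Rabs (11) or Golgi Rabs (12) was called, beside 14.3% of all measured genes. Among 20 effectors and tethers of late endosome Rabs only Rilpl1 and Rilpl2 were. Both were higher, 10% of the late endosome list against 8.37% of all measured genes. With spike-in scaling Ocrl, Rab11fip1, Ehbp1, Ehbp1l1, Bicd1, Tgfbrap1 and Vps16 were called lower, as were 21.3% of all measured genes. Rab11fip1 was called lower with median centring as well. The medians of these lists were -0.25, -0.06, 0.12 and 0.04, and the sign of the last 2 turned with spike-in scaling, that of the late endosome list also with median centring.

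**Figure D4:**
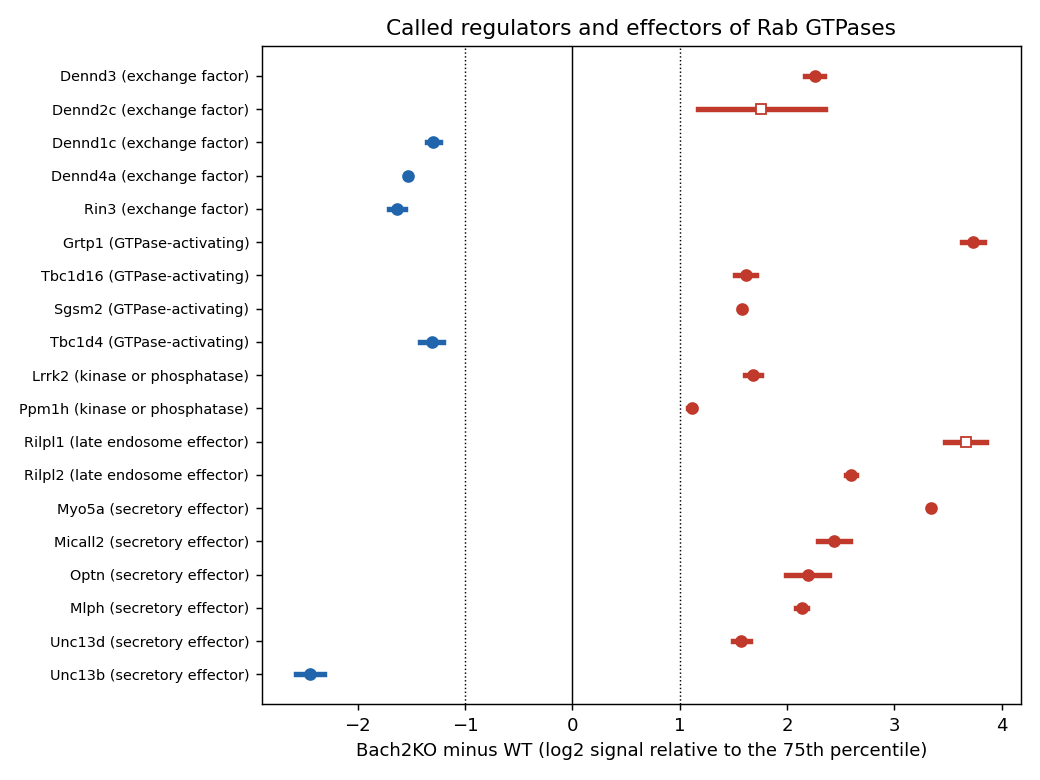
Difference in log2 signal, Bach2KO minus WT, for the 19 called regulators and effectors of Rab GTPases, named with their class. Points are differences of means over 2 arrays per genotype, bars run from the lowest to the highest of the 4 array pairs, and open squares mark genes not well above background in WT. Of the 6 secretory effectors, 5 lie between 1.57 and 3.34 and Unc13b lies below 0, and scaling to spike-in controls, which moves every point 0.72 to the left, ends the calls of Dennd2c, Sgsm2, Tbc1d16, Lrrk2, Ppm1h and Unc13d.

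Markers of other cells that could be in a sorted sample differed between genotypes, some higher and some lower in Bach2KO. Their sums are relative to the 75th percentile. Scaling to the spike-in controls, which lowers every difference by 0.72 log2, was not applied to them. A small rise in a sum is thus shown for the 75th percentile scaling only. Of all measured genes 8.37% were called higher and 5.9% lower, beside the counts of markers given here. Monocyte and interstitial macrophage markers summed to 3.68 to 4.37 times the 75th percentile signal in WT and 8.16 to 8.29 in Bach2KO, with C1qa, C1qb and C1qc higher and Ccr2 lower among 7 and Cd163 not well above background. Alveolar macrophage markers summed to 799 to 897 in WT and 712 to 719 in Bach2KO. Neutrophil markers summed to 40.1 to 41.3 and 49.9 to 50, with S100a8 and S100a9 higher among 5 and Ngp not well above background. The brightest of them on every array was Csf3r, not called, at 5.31, 5.27, 4.98 and 4.90 log2. Epithelial markers, of interest because Rab38 acts in type II cells, summed to 3.78 to 3.95 and 4.70 to 4.84, with Sftpb and Scgb1a1 higher and Epcam lower among 6, and Krt8 was not well above background. Cdh1, not called, was the brightest of them on every array, at 1.04, 1.10, 2.02 and 1.99 log2. Epcam had 0.52, 0.56, -8.19 and -8.09. Sftpc, which defines type II cells, had log2 signals of -4.02, -4.08, -3.91 and -3.95 and was not called. T cell markers summed to 6.47 to 7.20 and 8.18 to 8.25, with 2 of 5 higher. The brightest were Cd4 and Cd3e, neither of them called, with differences of 0.30 and 0.17. Platelet markers summed to 0.60 to 0.64 and 1.31 to 1.33, with 1 of 2 higher, and Ppbp, Itga2b and Gp9 were not well above background. Mast cell and basophil markers summed to 0.34 to 0.37 and 0.38 to 0.41, with none of 3 called, and Fcer1a, Cpa3 and Mcpt8 were not well above background. B cell markers had 1 of 3 higher, endothelial markers 1 of 3, and eosinophil and dendritic cell markers none of 2 each. The part of these cells in the Rab differences was not tested.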

How the data were processed

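Scanner files of 4 1-colour Agilent arrays on 1 slide were used. They hold background-subtracted, detrended spot intensity on a linear scale, for which the Feature Extraction version per the file headers is 10.7.3.1 and is 9.1 per the submitters' processing notes. The authors' deposited value table holds log2 values, which equal the log2 processed signal minus a constant per array, with no centring of genes and column medians of -3.58, -3.67, -3.53 and -3.45, and served as an alternative. Control spots and 109 to 136 outlier spots per array were left out, spots of a probe were averaged, and the log2 75th percentile over 43020 non-control spots was subtracted. No spot was saturated. Probes were named through RefSeq accessions (GRCm38.p6): 26049 of 39429 had 1 symbol, 0 several and 13380 none. The design is of mm9, so no probe coordinates are given. Bounds used each array's lowest log2 signal well above background and hold for the scanner's background subtraction only.

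The Rab genes, role groups and lists were chosen with earlier results of these data known. Every Rab gene is named, with all array values for the called ones, those whose call an alternative changed and the brightest per role, and for some others. From each list of regulators and effectors all called genes are named, where the rule kept up to 4. Other genes of those lists were chosen after their values were seen. Same-numbered arrays did not deviate together (r = -0.14 across 15118 genes, which are not independent replicates), so numbers were not paired. Python 3.11.15 was used, also for quantile normalization, with limma 3.58.1 in R 4.3.3 for normexp only. Calls were tested on simulated data in which every probe was well above background, so the background filter and the bounds were not tested. Protein sequences were not analysed here.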

Additional observations from a re-analysis of the deposited data

How the results depend on the processing

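Rab38, Rab15 and Rab34 were called higher under all 20 alternatives, with differences of 4.92 to 6.41, 3.68 to 5.28 and 2.90 to 3.67. The dim second probe of Rab38 stood for the gene in none of them. Rab3c was called lower except at a 3-fold threshold. The Rab39 and Rab40b calls were lost with normexp and, neither gene being well above background in Bach2KO, under a filter requiring signal on all 4 arrays, and at 3-fold for Rab40b. The count of Rab genes lower, 3, became 9 with spike-in scaling (Rab19, Rab27a, Rab29, Rab2b, Rab37 and Rab6b added), 1 with normexp at the 75th percentile, normexp with quantile normalization, the filter on all 4 arrays or 3-fold, and 6 at 1.5-fold, where 9 were higher. The Rab median became -0.65 with spike-in scaling, -0.0295 with median centring, 0.0442 with quantile normalization, 0.0436 with normexp before it, and 0.11 with the deposited values or the percentile over probes, the last chosen after seeing the data. Leaving out 1 array gave medians of 0.0493 to 0.10 and 3 to 4 genes called each way. Over all genes 1266 were higher and 892 lower; spike-in scaling gave 627 and 3214, 1.5-fold 2236 and 1933, and 3-fold 695 and 410. For the regulators, 14 and 5 became 8 and 34, 27 and 20, and 9 and 1. With same-numbered arrays as a replicate block 3 Rab genes were called higher and 3 lower (1301 and 916 of all genes, 14 and 6 regulators), and the crossed replicate block, chosen after seeing the data, gave 4 and 3. The causes of these changes were not tested.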
